A study of Mus musculus with 99 samples.

Results

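The LIM homeobox factors described here are 10 mouse genes: Lhx1, Lhx2, Lhx3, Lhx4, Lhx5, Lhx6, Lhx8, Lhx9, Isl1 and Isl2. They were chosen by name as the Lhx and Isl genes of the gene count table, where they are 10 of 55341 gene names, and in the ChIP-seq peak lists a peak was assigned to a gene when it overlapped the gene or the 2.5 kb on either side. All 10 passed the filter on low counts. The study asked what the ubiquitin ligase activity of the Polycomb protein RING1B contributes to repression in mouse embryonic stem cells (ESCs). The parental line (Parental) was ROSA26::creERT2 RING1A-/-; RING1B fl/fl, so that every library of this line and its derivatives lacked RING1A, and 4-hydroxytamoxifen (OHT, 0.5 µM, against an ethanol vehicle written here as -OHT) activated the Cre recombinase that deletes endogenous RING1B. Derivatives of that line carried tagged RING1B of wild-type sequence (RING1B WT) or the catalytically inactive missense mutant RING1B I53S, expressed from the pCAG promoter in puromycin-selected clones, so that by design the transgene was the only RING1 protein left after OHT. MTF2 KO derivatives of the same lines were made with Cas9 and isolated as clones, and separate ROSA26:creERT2 Eed fl/fl ESCs lost the PRC2 subunit EED upon OHT. All cells were grown on gelatin with serum, LIF and 2 kinase inhibitors, and the labels give 72 h of treatment, with 48 h in the titles of some MTF2 and JARID2 libraries.

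LIM homeodomain proteins carry a pair of zinc-binding LIM domains and a DNA-binding homeodomain, and they act in complexes bridged by the LIM cofactor LDB1. Combinations of them specify neurons, above all in the spinal cord and forebrain, and individual members also direct pituitary, eye, gonad, kidney and heart development. In ESCs such developmental regulators are classical Polycomb targets: PRC1, built on RING1A or RING1B, places H2AK119ub1, and PRC2, built on EZH1 or EZH2 with SUZ12 and EED, places H3K27me3.

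In the GENCODE M21 annotation of mm10, Lhx1 spans chr11:84518284-84525535, Lhx3 chr2:26200212-26208289, Lhx4 chr1:155698031-155751684, Lhx6 chr2:36081953-36105408, Lhx8 chr3:154306294-154330659, Lhx9 chr1:138825186-138848577 and Isl1 chr13:116298281-116309689, all on the minus strand. Lhx2 (chr2:38339281-38369733), Lhx5 (chr5:120431699-120441223) and Isl2 (chr9:55538672-55546180) lie on the plus strand. The members are thus dispersed over 7 chromosomes, with Lhx2, Lhx3 and Lhx6 on chromosome 2 and Lhx4 and Lhx9 on chromosome 1.

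RNA-seq comprised 16 libraries in 8 groups of 2, with 8140106 to 12743460 counts in the 12 of Parental, RING1B I53S and RING1B WT cells and 6957248 to 9443814 in the 4 Eed fl/fl libraries. ChIP-seq comprised 70 peak lists of 12 antibodies plus 4 input lists. There was 1 library per condition, except for 2 at 72 h for MTF2 and JARID2 in RING1B WT and RING1B I53S, so peak differences were not tested. Rnf2, the gene of RING1B, stood at 198 and 257 CPM (counts scaled to the effective library size) without and 144 and 167 CPM with OHT in Parental. These counts include the transcript outside the deleted exons and, in the derivatives, the transgene, and so are a weak check of the deletion. Eed fell from 255 and 173 to 67.1 and 43.7 CPM in Eed fl/fl cells. Summed CPM of 8 ESC markers was 5234 to 6369 in untreated Parental cells and 3244 to 3328 after OHT, 5215 to 6312 and 3454 to 3525 in RING1B I53S, and 5584 to 6798 and 5289 to 5472 in RING1B WT. Over the same Parental groups the sums moved from 24.5 to 25.9 CPM up to 121 to 127 CPM for 5 trophoblast markers, from 2.61 to 2.97 up to 39.7 to 43.5 CPM for 6 primitive endoderm markers and from 2.47 to 3.50 up to 23.9 to 25.9 CPM for 5 fibroblast markers, where Col1a1 and Col1a2 carried the sum and Col3a1, Postn and Lum had 0, 1 and 0 counts in Parental +OHT. The sum of 6 neuron markers went from 482 to 536 down to 191 to 192 CPM with Stmn2 and Tubb3 called lower, while Map2 and Rbfox3 were called higher. The part of these shifts in the results on the LIM homeobox genes was not tested, and in bulk RNA fewer cells of a type and less RNA per cell cannot be told apart.

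Before OHT, every LIM homeobox gene lay under Polycomb peaks. All 10 had a RING1B peak in untreated Parental cells, against 19.5% of 21911 protein-coding genes, and all 10 had a peak of PCGF2, CBX7, H2AK119ub1, SUZ12, MTF2, JARID2, EPOP, AEBP2 and H3K27me3 in the same cells. AEBP2 was the most selective of these lists, with a peak at 4.61% of coding genes. The RING1B peaks covered 75.0 kb over the 10 loci, and their top scores, the −log10 p value that MACS2 gave each peak, ran from 51.8 at Lhx9 and 91.3 at Isl1 to 213 at Lhx1, 219 at Lhx2 and 242 at Isl2. Lhx2, a regulator of eye and forebrain development, had the widest RING1B coverage at 15756 bp, and Lhx9, which is needed for gonad formation, the narrowest at 2645 bp.

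The promoter windows of the members differed widely in CpG content. RefSeq windows of GRCm38.p6, 250 bases before to 50 after a transcript start, existed for 9 members in 13 windows; the missing gene was Lhx5. The median window of the members held 16 CG dinucleotides in its upstream 250 bases, against 6 over all 32851 windows. Isl1, which specifies motor neurons and cardiac progenitors, held 33, more than 96.0% of all windows, while Lhx8, a factor of forebrain cholinergic neurons and of oocytes, and Lhx9 held 4 each. The longest run of upstream bases outside annotated exons is printed for a CpG-rich pair (Isl1 and Lhx1) and a CpG-poor pair (Lhx8 and Lhx9). These stretches show this range, 5′ to 3′ on the minus strand, with every CG in capitals.
Isl1, chr13:116309690-116309938: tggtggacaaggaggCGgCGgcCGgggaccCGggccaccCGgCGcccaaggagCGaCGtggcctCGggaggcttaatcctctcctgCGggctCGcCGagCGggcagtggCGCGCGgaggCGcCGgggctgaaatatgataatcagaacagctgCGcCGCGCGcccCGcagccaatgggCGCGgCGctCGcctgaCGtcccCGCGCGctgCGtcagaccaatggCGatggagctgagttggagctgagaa
Lhx1, chr11:84525536-84525659: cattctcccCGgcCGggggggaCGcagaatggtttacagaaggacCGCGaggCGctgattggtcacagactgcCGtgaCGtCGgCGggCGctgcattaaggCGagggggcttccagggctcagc
Lhx8, chr3:154330660-154330810: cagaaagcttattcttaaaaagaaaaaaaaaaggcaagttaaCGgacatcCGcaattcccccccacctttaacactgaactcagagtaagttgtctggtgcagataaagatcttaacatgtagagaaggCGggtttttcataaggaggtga
Lhx9, chr1:138842458-138842694: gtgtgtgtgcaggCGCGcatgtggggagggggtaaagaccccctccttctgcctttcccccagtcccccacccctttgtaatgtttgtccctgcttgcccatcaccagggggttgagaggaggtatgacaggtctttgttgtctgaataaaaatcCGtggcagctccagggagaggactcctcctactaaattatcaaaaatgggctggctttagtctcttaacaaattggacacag
RING1B peaks of untreated Parental and of OHT-treated RING1B WT cells covered all 250 upstream bases of the Isl1, Lhx1 and Lhx8 windows, the CpG-poor Lhx8 window included. None of the RING1B, PCGF2, CBX7 or H2AK119ub1 peaks fell on this Lhx9 window, whose locus was bound elsewhere. The window, chr1:138842395-138842694, surrounds a start inside the gene. The 5′ end of the Lhx9 span is at 138848577, and the sequence there was not examined. The top AEBP2 peak of Lhx9 in Parental -OHT, chr1:138848383-138849302, overlapped that 5′ end.

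RING1B peaks at the members were gone in Parental cells after OHT, and were found again with wild-type RING1B but, with 1 exception, not with RING1B I53S. No member had a RING1B peak in Parental +OHT (2.36% of coding genes had one), all 10 had one in RING1B WT +OHT (15.1%), and in RING1B I53S +OHT only Lhx8 had one (4.21%), of 517 bp with a score of 11.1. The 10 loci had 63.6 kb under RING1B peaks in RING1B WT +OHT. In that library the lowest scores again belonged to Isl1 (27.7) and Lhx9 (31.8), and the highest to Lhx1 (175), Isl2 (171) and Lhx2 (170).

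The partner subunits of PRC1 followed in part. PCGF2, a core subunit of canonical PRC1, had a peak at 10 members in Parental -OHT (18.7% of coding genes). It had one at 0 members in Parental +OHT (0.333%) and at 10 in RING1B WT +OHT (13.9%). In RING1B I53S +OHT it still had one at 8, where 2.59% of coding genes did; Lhx9 and Isl1 lacked it, and 5 had a peak of score 20 or more. The remaining PCGF2 peaks in RING1B I53S covered 28.8 kb, against 86.7 kb in Parental -OHT, and were strongest at Lhx8 (score 74.3), Isl2 (52.7) and Lhx1 (43.8). CBX7, the chromodomain subunit that binds H3K27me3, had peaks over 100.7 kb at all 10 members in Parental -OHT and over 69.2 kb at all 10 in RING1B WT +OHT. It had 1 peak of 499 bp at Isl2 in Parental +OHT and 1 of 849 bp at Lhx8 in RING1B I53S +OHT, both with scores near 10, the lowest that the lists hold. The shares of coding genes with a CBX7 peak were 18.9% in Parental -OHT and 9.96% in RING1B WT +OHT. They were 0.278% in Parental +OHT and 0.169% in RING1B I53S +OHT, whose whole lists held 59 and 32 peaks.

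Subunits of variant PRC1 did not share 1 pattern with those of canonical PRC1. In RING1B I53S +OHT, RYBP and PCGF6 had a peak at 4 members each, RING1B and CBX7 at 1 each and PCGF2 at 8. RYBP had a peak at 6 members in Parental -OHT (13% of coding genes), 0 in Parental +OHT (0.269%), 5 in RING1B WT +OHT (5.37%) and 4 in RING1B I53S +OHT (3.68%); the title of the RYBP library read here as Parental +OHT has a letter more than the other Parental titles, which the labels do not explain. PCGF6, of the PRC1.6 complex, had one at 9 members in Parental -OHT (30.3% of coding genes), at 4 in Parental +OHT (21.1%), at 10 in RING1B WT +OHT (28.5%) and at 4 in RING1B I53S +OHT (11%). Its scores were 10.8 to 24.0 at 8 of the 9 genes in Parental -OHT, and 117 at Isl2. In RING1B WT +OHT they were higher at the members, from 17.5 at Lhx9 to 108 at Lhx2, with a median of 55.0.

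The strong PCGF6 peak of Isl2, a factor of motor neurons and retinal ganglion cells, stood at the 3′ end of the gene and remained when RING1B was gone. Isl2 spans chr9:55538672-55546180 on the plus strand. Its top PCGF6 peak ran from 55543754 to 55546789 with a score of 117 in Parental -OHT, from 55545672 to 55546872 with a score of 142 in Parental +OHT, from 55539475 to 55546906 with a score of 94.8 in RING1B WT +OHT and from 55545967 to 55546709 with a score of 65.6 in RING1B I53S +OHT. The stretch shared by the 4 peaks was 743 bp long and held 63 CG. The first 300 bases after the annotated end of Isl2, which lie within that shared stretch and hold 35 CG, are printed to show the CpG-rich sequence under the peak, with each CG in capitals.
Isl2 downstream, chr9:55546181-55546480, plus strand: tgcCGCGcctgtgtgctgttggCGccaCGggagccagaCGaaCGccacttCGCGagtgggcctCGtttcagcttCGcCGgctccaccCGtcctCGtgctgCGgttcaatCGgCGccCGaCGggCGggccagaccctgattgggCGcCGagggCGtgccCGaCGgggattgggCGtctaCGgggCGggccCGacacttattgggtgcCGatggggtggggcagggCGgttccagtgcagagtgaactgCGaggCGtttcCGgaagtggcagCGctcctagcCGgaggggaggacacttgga
The median number of CG in 300-base windows at the centres of the PCGF6 peaks of Parental +OHT was 26. The printed stretch starts at the gene end and was not centred on a peak, so its 35 CG are not set against that median. Neither the E-box CACGTG, found on either strand in 24.0% of 4765 such windows and 7.15% of all promoter windows, nor the E2F-type motif TTCCCGCC, found in 8.60% and 2.19%, occurred in the 743 bp. The 3′ end of the neighbouring gene Scaper lies 3698 bp from the end of Isl2.

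**Figure D1:**
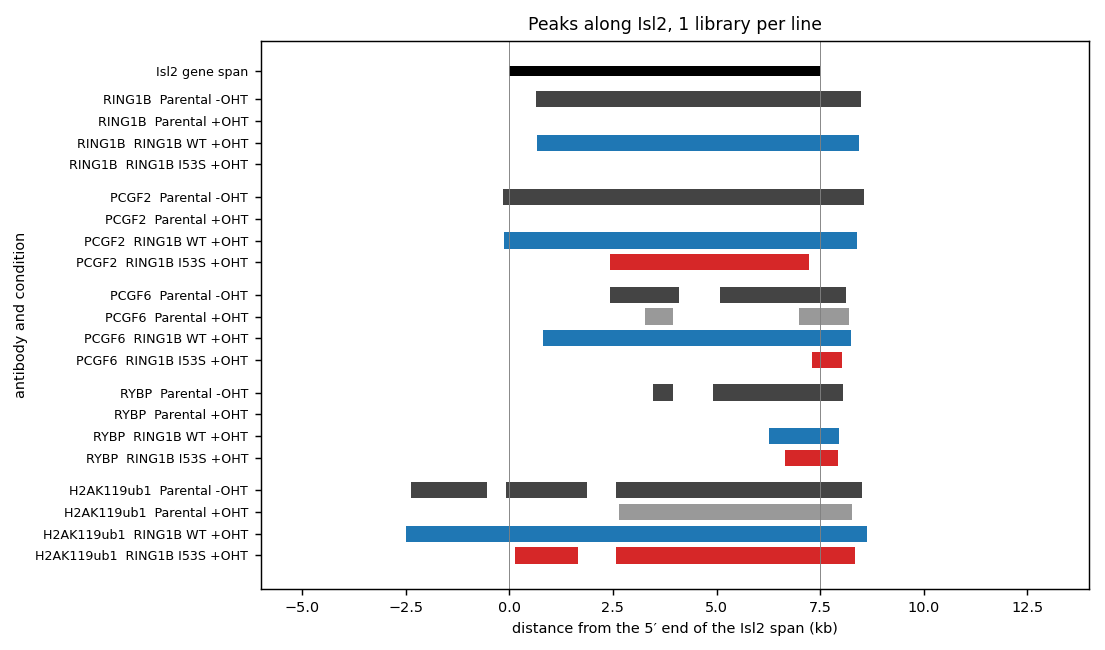
Peaks of RING1B, PCGF2, PCGF6, RYBP and H2AK119ub1 along Isl2, plotted as distance from the 5′ end of its span in kb, with 1 row per antibody and condition. The RING1B and PCGF2 peaks over the gene body are missing in Parental +OHT, while the PCGF6 peak at the 3′ end of Isl2 is present in all 4 conditions.

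H2AK119ub1 peaks were called at all 10 members in Parental -OHT over 94.5 kb, at 9 in Parental +OHT over 54.6 kb, at 10 in RING1B WT +OHT over 107.7 kb and at 8 in RING1B I53S +OHT over 47.0 kb, of which 5 had a peak of score 20 or more. In the same order 26.3%, 22.4%, 31.4% and 12.8% of coding genes had a peak of this mark, so peaks were also listed widely in Parental +OHT. The lists were called for each library against an input, and the Drosophila spike-in scaling of the marks is not carried into them, so a peak says that the locus stood above its own library's input and not how much mark was left. Lhx9 lacked a peak in both conditions without active RING1B, and Isl1 in RING1B I53S +OHT. At Lhx6, which directs cortical interneuron development, the covered length was 18197 bp in Parental -OHT, 3423 bp in Parental +OHT, 20214 bp in RING1B WT +OHT and 3468 bp in RING1B I53S +OHT. At Lhx1, required for head and kidney formation, the covered length changed less, with 10895, 8731, 10630 and 8796 bp in the same order. The span of Lhx1 is 7252 bp and that of Lhx6 23456 bp, so coverage at Lhx1 is capped at a shorter length.

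Without active RING1B, PRC2 peaks at the members narrowed and SUZ12 scores were lower, but most members kept a peak. The median top SUZ12 score of the members with a peak was 495 in Parental -OHT and 106 in Parental +OHT. It was 358 in RING1B WT +OHT and 65.9 in RING1B I53S +OHT. For H3K27me3 the scores were 37.9, 31.6, 44.9 and 31 in the same order. The depth of the lists is unknown, and these differences were not tested. SUZ12 peaks covered 101.8 kb at 10 members in Parental -OHT, 65.3 kb at 10 in Parental +OHT, 87.3 kb at 10 in RING1B WT +OHT and 49.3 kb at 8 in RING1B I53S +OHT, where 31.3%, 23.0%, 26.1% and 14.4% of coding genes had one. H3K27me3 peaks were present at all 10 in each of these conditions, over 130.7, 104.5, 126.3 and 90.8 kb, and at 30.6%, 25.6%, 30.5% and 24.1% of coding genes. Isl1 showed the steepest change in coverage of this mark, from 9546 bp in Parental -OHT to 827 bp in Parental +OHT and 1190 bp in RING1B I53S +OHT, with 6405 bp in RING1B WT +OHT, and Lhx1 had 12252, 12252, 11840 and 12252 bp in these conditions. The Lhx1 window is 12252 bp long, so its coverage is capped there and a change of a wider domain could not be seen.

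The 2 forms of PRC2 are told apart by their accessory subunits: MTF2 and EPOP belong to PRC2.1, JARID2 and AEBP2 to PRC2.2. Without OHT, MTF2 covered 132 kb in Parental, 113.4 kb in RING1B WT and 113.7 kb in RING1B I53S, at all 10 members in each. The median top score of the members in these lists was 1867, 697 and 612. Of coding genes, 54.7%, 40% and 36.2% had a peak there. At 72 h of OHT, MTF2 had a peak at all 10 members in Parental over 76.1 kb, at all 10 in both RING1B WT libraries over 93.2 and 100.1 kb, and at 9 and 10 in the RING1B I53S libraries over 46.9 and 82.0 kb. The shares of coding genes with an MTF2 peak were 27.6% in Parental, 30.4% and 27.6% in RING1B WT and 12.6% and 28.1% in RING1B I53S. The 2 RING1B I53S libraries thus differed from each other by more than the second of them differed from Parental +OHT. Median top MTF2 scores at 72 h, over the members with a peak, were 112 in Parental and 495 and 369 in RING1B WT. In RING1B I53S they were 45.5 and 110. The depth of the lists is unknown, and these differences were not tested. EPOP had a peak at 8 members in Parental +OHT (49.9 kb; 11.6% of coding genes), 10 in RING1B WT +OHT (97.8 kb; 26.4%) and 10 in RING1B I53S +OHT (52.3 kb; 12.6%), against 96.9 kb at 10 in Parental -OHT (26.2%).

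Without active RING1B, JARID2 peaks covered less of these genes and AEBP2 had none. JARID2 covered 123.9 kb in Parental -OHT, 60.1 kb at 9 members after 48 h and 39.96 kb at 8 after 72 h. In the other lines without OHT it covered 107.7 kb (RING1B WT) and 115.4 kb (RING1B I53S), at all 10 members in each. It covered 96.5 and 104.3 kb at all 10 in the RING1B WT libraries at 72 h, and 31.3 kb at 8 and 20.3 kb at 7 in the RING1B I53S libraries. Of all coding genes, 34.8% had a JARID2 peak in Parental -OHT, 11.9% after 48 h and 5.62% after 72 h, against 20.3% and 20.0% in RING1B WT and 4.34% and 1.80% in RING1B I53S at 72 h. Without OHT this share was 23.7% in RING1B WT and 21.7% in RING1B I53S, below that of Parental -OHT. At 72 h both RING1B I53S libraries were below both RING1B WT libraries. With 2 libraries on each side no exact test could reach 0.05, and none was run. Isl1 had no JARID2 peak in any of these OHT libraries of Parental or RING1B I53S. AEBP2 had a peak at 10 members in Parental -OHT and 9 in RING1B WT +OHT, where 4.61% and 4.92% of coding genes had one. It had a peak at 0 members in Parental +OHT and 0 in RING1B I53S +OHT, where 0.0685% and 0.132% of coding genes had one. None of the members had a peak in any input list.

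**Figure D2:**
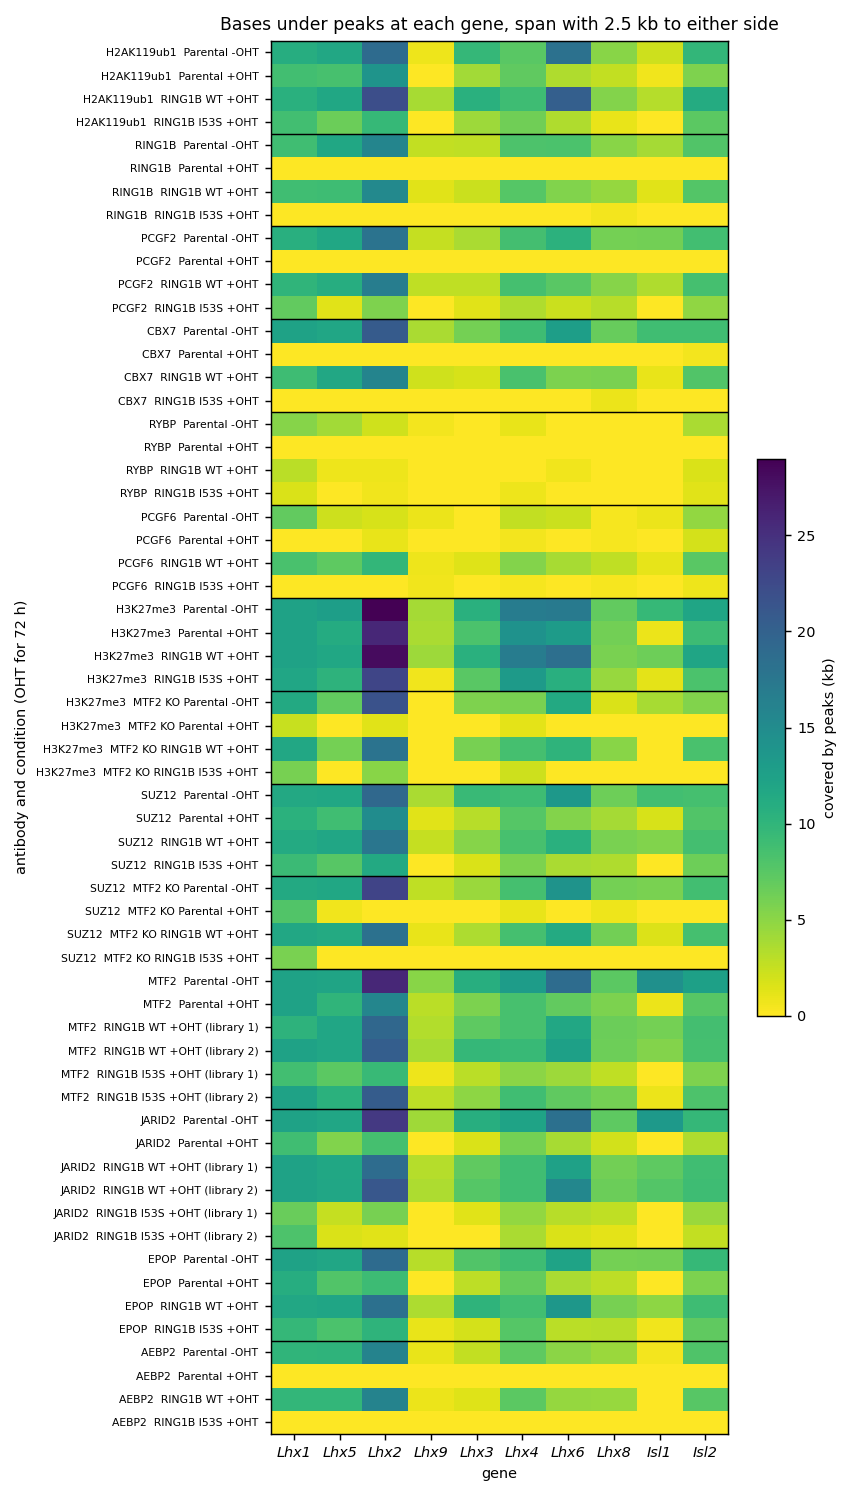
Heat map of the kilobases under peaks at each LIM homeobox gene (columns) for each antibody and condition (rows). RING1B, CBX7 and AEBP2 rows are empty or nearly so in Parental +OHT and RING1B I53S +OHT, and H3K27me3 and MTF2 rows keep coverage there.

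In MTF2 KO cells the loss of RING1B activity left few PRC2 peaks at the members. SUZ12 peaks covered 96.7 kb at 10 members in MTF2 KO Parental -OHT and 81.7 kb at 10 in MTF2 KO RING1B WT +OHT, but 10.1 kb at 4 members (Lhx1, Lhx4, Lhx5 and Lhx8) in MTF2 KO Parental +OHT and 5.80 kb at Lhx1 alone in MTF2 KO RING1B I53S +OHT. The shares of coding genes with a SUZ12 peak in these lists were 12.2%, 13.6%, 5.52% and 2.13%. H3K27me3 peaks covered 73.8 kb at 9 members, 73.6 kb at 8, 4.94 kb at 3 and 13.4 kb at 3 in the same order of conditions, where 13.8%, 8.37%, 1.04% and 4.19% of coding genes had one. Lhx1, Lhx2 and Lhx4 were the 3 genes in both of the last lists. Lhx1 held the widest of what remained: a SUZ12 coverage of 7822 bp with a score of 27.4 in MTF2 KO Parental +OHT, and 5797 bp with a score of 14.2 in MTF2 KO RING1B I53S +OHT. Lhx2, with 23034 bp under SUZ12 peaks in MTF2 KO Parental -OHT, had none in either.

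**Figure D3:**
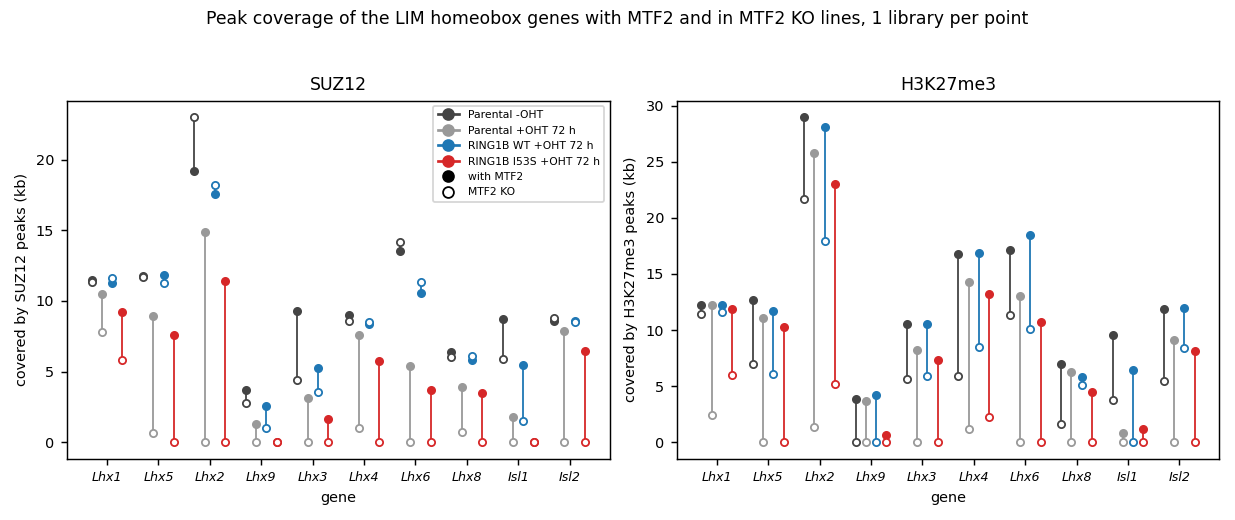
Kilobases under SUZ12 and H3K27me3 peaks at each LIM homeobox gene, in lines with MTF2 (filled) and MTF2 KO lines (open). The open points of the 2 conditions without active RING1B lie at 0 for most genes, with Lhx1 the widest SUZ12 exception at 7.82 kb in MTF2 KO Parental +OHT.

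The RNA of 9 of the 10 members rose in Parental cells upon OHT, and of 9 in RING1B I53S cells, while none passed the test in RING1B WT cells. A gene was called when the edgeR fit gave an FDR below 0.05 and a change of at least 1.5 on the log2 scale, which 15.1% of 18154 tested genes did upward in Parental, 12.8% in RING1B I53S and 1.34% in RING1B WT. In RING1B WT cells 5 of the 10 had an unadjusted p below 0.05, as had 2875 of the 18154 genes. With DESeq2 none was called in RING1B WT either, and without a filter on low counts 2 were. The members' median log2 change was 5.69, 4.70 and 2.24 in the 3 lines, beside 0.03, 0.01 and 0.02 over all tested genes; with the genes at 0 counts in untreated cells set to the lowest change their counts allow, it was 4.49 in Parental, 4.197 in RING1B I53S and, without Lhx9, 2.101 in RING1B WT. Both treated libraries stood above both untreated ones for 10 of 10 members in Parental and 10 of 10 in RING1B I53S, and for 8 in RING1B WT, against 38.1%, 31.5% and 26.9% of all genes. The members other than Lhx6 and Isl1 had 0 to 8 counts per untreated group of these lines. They passed the filter on low counts through treated libraries and had little room to fall, so the numbers that rose describe only these genes.

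Lhx1 and Lhx5 are close paralogs with roles in the head organizer and the forebrain. Lhx1 had 0 and 0 counts in the Parental -OHT libraries and 101 and 71 in Parental +OHT (7.77 ± 1.205 CPM, SD, n = 2), at least 53.1-fold higher, with the untreated group set to the 3 counts that a count of 0 allows over the group. It went from 0 and 3 to 49 and 54 counts in RING1B I53S, and from 1 and 0 to 4 and 5 in RING1B WT. The fitted log2 change of Lhx1 was 9.33 ± 1.08 (SE, FDR = 3.33e-06) in Parental and 5.07 ± 0.74 (FDR = 5.73e-05) in RING1B I53S; fitted changes against groups at 0 depend on the prior count of the fit. The treated Parental and RING1B I53S libraries lay apart from every untreated one, and the RING1B WT libraries just above them. Lhx5 went from 0 and 3 to 64 and 55 counts in Parental, a change of 5.05 ± 0.77 (FDR = 5.27e-05), from 4 and 3 to 72 and 92 in RING1B I53S, and from 4 and 1 to 6 and 15 in RING1B WT.

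Lhx2 and Lhx9 form the next pair. Lhx2 had 5 and 0 counts in Parental -OHT and 52 and 54 in Parental +OHT, a ratio of 19.6 (95% counting interval 8.16 to 61.8) and a log2 change of 4.28 ± 0.79 (FDR = 0.000334). It went from 3 and 1 to 54 and 54 counts in RING1B I53S, and in RING1B WT from 1 and 1 to 4 and 20, so that 1 of the 2 RING1B WT libraries was near the untreated level. Lhx9 had 0 counts in all 6 untreated libraries of these lines (Parental, RING1B I53S, RING1B WT). With OHT it reached 25 and 20 counts in Parental, at least 13.9-fold higher, and 23 and 39 in RING1B I53S, at least 22.4-fold higher. In RING1B WT +OHT Lhx9 had 0 and 3 counts, at the limit of detection.

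Lhx3 and Lhx4 act in the pituitary and in motor neurons. Lhx3 rose from 0 and 1 to 23 and 20 counts in Parental (log2 change 4.99 ± 1.06, FDR = 0.00123), and from 0 and 0 to 23 and 34 in RING1B I53S, and stood at 2 and 0 against 3 and 5 in RING1B WT. Lhx4 rose from 0 and 0 to 49 and 35 counts in Parental (at least 26.0-fold), from 2 and 5 to 18 and 19 in RING1B I53S (ratio 5.72, counting interval 2.52 to 15.2), and was 4 and 4 against 5 and 6 in RING1B WT. Both untreated libraries of RING1B WT and of RING1B I53S lay above both untreated Parental ones for 2 members, Lhx4 and Isl1. Of 18154 genes, 2748 and 2888 did so. Lhx6 lay below in RING1B I53S, as did 2411 genes. Lhx4 had 8 and 7 counts in all per group, and neither Lhx4 difference passed the test (FDR = 0.575 and 0.542). For Isl1 the ratio of untreated RING1B I53S to Parental was 1.51 (counting interval 1.11 to 2.07). No member was called between untreated lines by edgeR or DESeq2, Lhx4 alone had an unadjusted p below 0.05, and 0.0606% (RING1B WT) and 0.154% (RING1B I53S) of all genes were called in either direction against Parental. The exons of Lhx3 share 6.17% of their bases with an antisense gene and those of Lhx5 2.57%, and counting without strand cannot separate these reads.

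Lhx6 and Lhx8 are expressed in the embryonic basal forebrain. Lhx6 was already present in untreated cells, with 57 and 33 counts (4.36 ± 0.40 CPM) in Parental -OHT, and rose to 132 and 107 (10.9 ± 0.59 CPM) with OHT. Its log2 change of 1.31 ± 0.33 had an FDR of 0.00449 but was below the fold threshold, so that Lhx6 was the member not called in Parental. In RING1B I53S it rose from 51 and 37 to 114 and 136 counts (1.62 ± 0.33, FDR = 0.00114), and in RING1B WT the groups overlapped, with 61 and 37 against 60 and 83 counts. Its exons share 2.16% of their bases with another gene on the same strand. Lhx8 had 0 counts in the 6 untreated libraries and 43 and 20 in Parental +OHT (at least 19.5-fold higher), 11 and 23 in RING1B I53S +OHT (at least 12.3-fold higher) and 4 and 10 in RING1B WT +OHT (at least 4.80-fold higher; FDR = 0.0729).

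Isl1 and Isl2 are co-expressed in newborn motor neurons. Isl1 was the second member present before treatment, with 41 and 26 counts (3.28 ± 0.09 CPM) in Parental -OHT, and rose to 161 and 111 (12.3 ± 2.07 CPM), a log2 change of 1.90 ± 0.31 (FDR = 9.11e-05). In RING1B I53S it went from 68 and 48 to 123 and 152 counts, a change of 1.36 ± 0.29 (FDR = 0.00164) that missed the fold threshold, and in RING1B WT from 41 and 34 to 58 and 55. Isl2 went from 0 and 2 to 96 and 101 counts in Parental, a ratio of 91.3 (counting interval 24.9 to 759) and a log2 change of 6.33 ± 0.80 (FDR = 6.43e-06). It went from 6 and 1 to 44 and 65 counts in RING1B I53S and from 3 and 0 to 8 and 8 in RING1B WT. For Isl2 all treated libraries of all 3 lines exceeded the untreated ones of the same line.

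**Figure D4:**
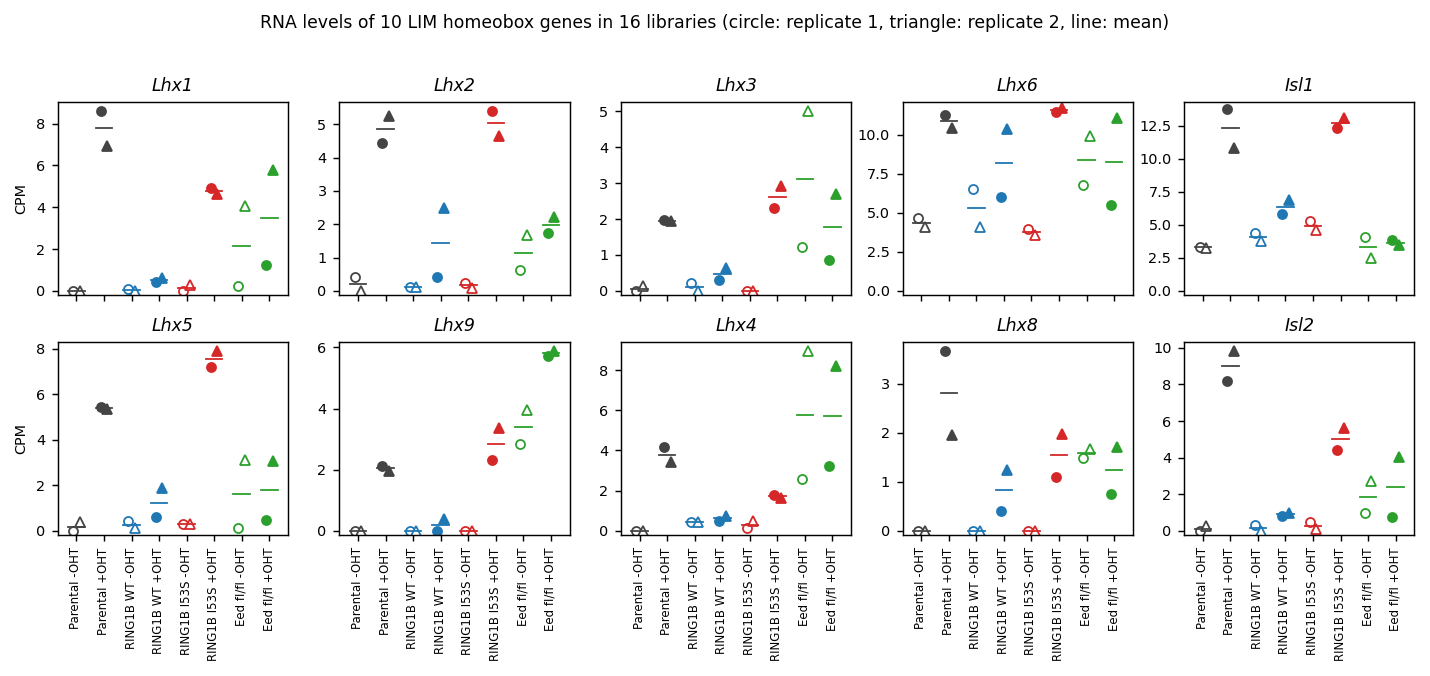
Level of each LIM homeobox gene in CPM in each of the 16 libraries, by line; open symbols are -OHT and filled ones +OHT, circles replicate 1, triangles replicate 2, and the bar is the mean of 2. The treated Parental and RING1B I53S libraries are above all untreated ones of those lines for every gene, and the RING1B WT +OHT libraries lie below those of Parental +OHT, as for Isl2 with means of 9.02, 5.005 and 0.90 CPM in Parental, RING1B I53S and RING1B WT with OHT.

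Per kilobase of exon, the order of the members changed with treatment. In Parental -OHT, Lhx6 (0.908 CPM per kb) and Isl1 (0.828) led, the next was Lhx5 at 0.069, and Lhx1, Lhx4, Lhx8 and Lhx9 were at 0. In Parental +OHT the order by mean level was Isl2 (4.11 ± 0.53 CPM per kb), Isl1 (3.10 ± 0.52), Lhx6 (2.26 ± 0.12), Lhx5 (2.01 ± 0.03), Lhx1 (1.91 ± 0.30), Lhx8 (1.11 ± 0.48), Lhx2 (1.10 ± 0.13), Lhx4 (0.662 ± 0.095), Lhx3 (0.643 ± 0.003) and Lhx9 (0.215 ± 0.014). The libraries of the neighbouring pairs Lhx5 and Lhx1, Lhx8 and Lhx2, and Lhx4 and Lhx3 overlapped in that order. In RING1B I53S +OHT, Isl1 led at 3.21 ± 0.13 and Isl2 came after Lhx5 and Lhx6 at 2.28 ± 0.38 CPM per kb.

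With OHT in all lines, restored wild-type RING1B went with lower levels of the members than no RING1B. Against Parental +OHT, 5 members were called lower in RING1B WT +OHT, where 7.62% of all genes were: Lhx1 (-3.92 ± 0.62 on the log2 scale, FDR = 0.000299), Isl2 (-3.32 ± 0.59, FDR = 0.000728), Lhx9 (-3.49 ± 0.94, FDR = 0.0157), Lhx4 (-2.60 ± 0.63, FDR = 0.00745) and Lhx5 (-2.16 ± 0.57, FDR = 0.0126). The 5 others had log2 differences of -2.09 (Lhx3) to -0.42 (Lhx6). All 10 members were lower in both RING1B WT +OHT libraries than in both Parental +OHT libraries, against 36.7% of all genes. Without the first RING1B WT +OHT library 2 members were called, without the first Parental +OHT library 2, and without the second Parental +OHT library 3.

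The catalytic mutant differed from wild-type RING1B in the same direction. Between the +OHT libraries 5 members were called higher in RING1B I53S than in RING1B WT, where 6.02% of all genes were: Lhx1 (3.21 ± 0.63, FDR = 0.00257), Lhx5 (2.65 ± 0.57, FDR = 0.00459), Lhx9 (3.97 ± 0.92, FDR = 0.00905), Isl2 (2.47 ± 0.59, FDR = 0.00946) and Lhx3 (2.51 ± 0.75, FDR = 0.0333). For 9 members, all but Lhx8, both RING1B I53S libraries lay above both RING1B WT ones, against 30.9% of all genes. This count rests on the first RING1B WT +OHT library, since no member was called without it. Every member was higher in the second than in the first RING1B WT +OHT library, with summed levels of 26.2 and 15.3 CPM, beside 63.7 and 57.9 CPM in Parental +OHT and 53.3 and 57.5 CPM in RING1B I53S +OHT.

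Between RING1B I53S +OHT and Parental +OHT no member passed the test: none was called by edgeR or DESeq2 and 0 had an unadjusted p below 0.05 (0.16% of all genes were called, in either direction), and the log2 differences ran from -1.14 ± 0.54 at Lhx4 to 0.48 ± 0.49 at Lhx5. Counting intervals on the summed libraries, which cover counting error only, put the RING1B I53S to Parental ratio at 0.448 (0.296 to 0.667) for Lhx4, 0.563 (0.442 to 0.715) for Isl2, 0.61 (0.473 to 0.783) for Lhx1, 0.549 (0.351 to 0.846) for Lhx8 and 1.40 (1.10 to 1.79) for Lhx5. Both RING1B I53S libraries lay above both Parental ones for 4 members (Lhx3, Lhx5, Lhx6 and Lhx9; 15.6% of all genes) and below them for 3 (Lhx1, Lhx4 and Isl2; 16.8%). The OHT effects of these lines were also compared directly. No member was called by edgeR or DESeq2 for a different OHT effect in RING1B I53S and Parental, where edgeR called 0% of all genes, 488 genes had an unadjusted p below 0.05, and 2 of these were members. Between RING1B WT and Parental the difference in OHT effect was below 0 for all 10 members (-7.80 to -0.69 on the log2 scale), with an unadjusted p below 0.05 for 5, and Lhx4 was the one called (-7.80 ± 1.61, FDR = 0.0145), where 1.1% of all genes were called lower. This Lhx4 call was lost without the first library of any of the 4 groups involved, and its size depends on the untreated Parental libraries at 0.

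**Figure D5:**
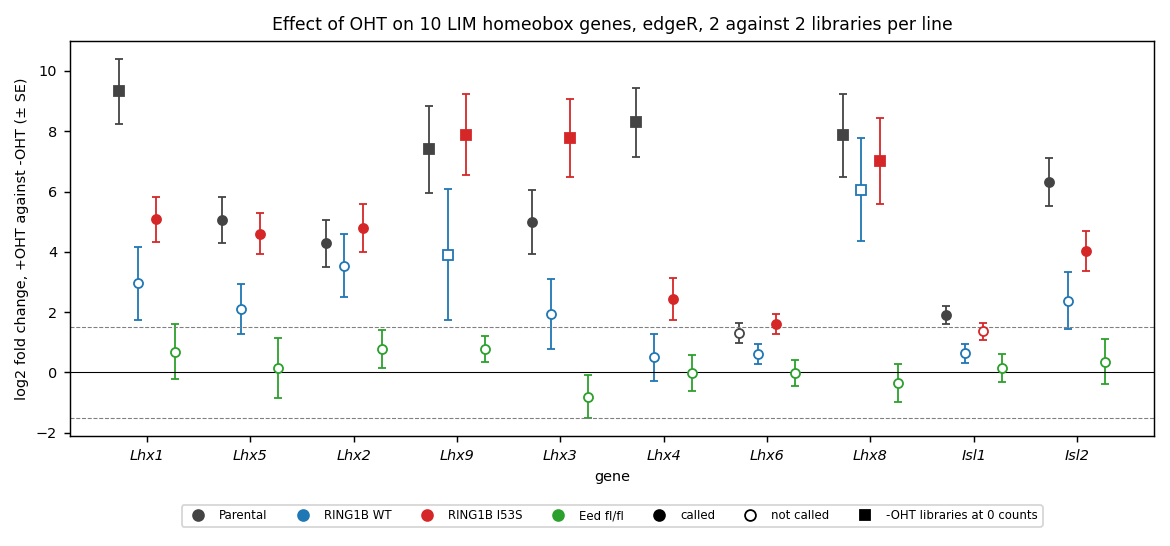
Log2 change with OHT (± SE) of each LIM homeobox gene in the 4 lines; filled symbols were called, squares mark genes at 0 counts in both untreated libraries of that line, and dashed lines mark 1.5 and -1.5. Parental and RING1B I53S values lie above 1.5 except Lhx6 in Parental (1.31) and Isl1 in RING1B I53S (1.36), and the Eed fl/fl values lie between -0.80 and 0.77.

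In Eed fl/fl cells none of the members was called by edgeR or DESeq2, and 0 had an unadjusted p below 0.05. The log2 changes ran from -0.80 ± 0.71 (Lhx3) to 0.77 ± 0.63 (Lhx2) and 0.77 ± 0.43 (Lhx9), and edgeR called 0.00795% of 25170 genes higher, with 1372 genes at an unadjusted p below 0.05. Untreated Eed fl/fl cells already had counts of all 10 members: Lhx4 had 21 and 75 counts, Lhx9 23 and 33, and Lhx3 10 and 42 without OHT. This was not particular to the members. Over the untreated Eed fl/fl libraries Col3a1 had 57 counts, Chat 60 and Lmo3 42, each against 0 in untreated Parental cells, while Gsc had 3 in both. More genes passed the filter in the Eed fl/fl fit than in the fit of the other 12 libraries (25170 against 18154). The cause was not tested. The Eed fl/fl libraries were normalised apart from the other 12, so levels are set side by side only. The second library of each group exceeded the first for 9 of 10 members, with sums of 20.98 and 43.6 CPM without and 24.1 and 48.1 CPM with OHT. Lhx9 had 23 and 33 counts without and 46 and 48 with OHT.

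In a joint fit of the 16 libraries the OHT effect was lower in Eed fl/fl than in Parental for 7 members, where 3.96% of 27663 genes were called lower. These were Lhx1 (-8.53 ± 1.86, FDR = 0.00393), Lhx4 (-8.21 ± 1.54, FDR = 0.000968), Lhx8 (-8.11 ± 1.70, FDR = 0.00313), Lhx9 (-6.54 ± 1.64, FDR = 0.0137), Isl2 (-5.86 ± 1.24, FDR = 0.00301), Lhx3 (-5.69 ± 1.41, FDR = 0.0118) and Lhx5 (-4.81 ± 1.36, FDR = 0.0287). Lhx2, Isl1 and Lhx6 were not called (FDR = 0.0666, 0.0576 and 0.214). The lines also differ in RING1A and in origin, which cannot be told apart from the deleted gene in this comparison, and 4 members were called without the second Eed fl/fl -OHT library.

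Other genes of the LIM homeobox pathway were followed as fixed lists. Both other LIM homeobox genes rose in Parental and in RING1B I53S: Lmx1a, a factor of midbrain dopamine neurons, went from 0 and 0 to 58 and 65 counts in Parental, and Lmx1b, which patterns the dorsal limb, from 2 and 2 to 92 and 83. Of the 8 tested LIM cofactors, 2 were called higher in Parental, the LIM-only genes Lmo1 (15 and 11 to 127 and 116 counts, log2 change 3.10 ± 0.48) and Lmo2 (0 and 2 to 23 and 31). At an FDR below 0.05 with no fold threshold, 4 cofactors were higher and 1 lower. Ssbp2 went from a mean of 9.61 to 24.8 CPM and Lmo4 from 6.83 to 12.1 CPM, and neither was called. Ldb1, the bridging cofactor itself, had a log2 change of -1.33 ± 0.20 (FDR = 4.39e-05), from 47.2 and 58.5 to 19.4 and 22.7 CPM, which is below the fold threshold. The list's median change was 0.45, against 5.69 for the members.

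Genes known as targets of LIM homeodomain complexes were followed in the same way. Of 13 listed targets 7 were tested, and 6 of these rose in Parental: Mnx1, a motor neuron homeobox gene, with 0 and 0 against 7 and 19 counts; Slc18a3, the vesicular acetylcholine transporter, with 0 and 0 against 6 and 24; Mef2c, a muscle and heart transcription factor, with 0 and 1 against 33 and 17; Gsc, an organizer homeobox gene, with 3 and 0 against 15 and 15; Nr5a1, a gonadal and adrenal nuclear receptor, with 3 and 1 against 20 and 42; and Robo3, an axon guidance receptor, with 10 and 1 against 26 and 26. The seventh, Fgf10, a growth factor gene, had 69 and 78 counts against 40 and 29, a log2 change of -1.27 ± 0.42 (FDR = 0.023) that is below the fold threshold. The 6 targets that rose had 0 to 10 counts in each untreated Parental library and passed the filter on low counts through treated libraries, and the other 6 were not tested, so their number describes only these genes. The first 5 of the 6 also rose in RING1B I53S, where Robo3 had a log2 change of 1.65 ± 0.69 (FDR = 0.0839), and none rose in RING1B WT. Among both lists and the other LIM homeobox genes, Lmx1b was the one called in RING1B WT (2.77 ± 0.72, FDR = 0.0491), and none was called in Eed fl/fl.

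The genes whose profile over the 16 libraries was most like the members' median were Wnt5a, which encodes a Wnt ligand, Hpcal4, a neuronal calcium sensor gene, and Tpbgl. Their Pearson r of log2(CPM + 1) with that median was 0.986, 0.984 and 0.980, a description over libraries that share 8 groups and their normalisation. Wnt5a had 2 and 4 counts in Parental -OHT and 105 and 108 in Parental +OHT, 92 and 111 in RING1B I53S +OHT, 17 and 16 in RING1B WT +OHT, and 21, 50, 35 and 50 in the 4 Eed fl/fl libraries. It was highest in the treated Parental and RING1B I53S libraries. Among the members Lhx3, Lhx4 and Lhx9 did not share that order by mean level, with untreated Eed fl/fl cells (3.13, 5.78 and 3.39 CPM) above Parental +OHT (1.96, 3.80 and 2.04 CPM). Per kb of exon the libraries of these groups overlapped for Lhx3 (0.405 to 1.65 against 0.640 to 0.645 CPM) and Lhx4 (0.451 to 1.56 against 0.594 to 0.729). For Lhx9 they did not (0.299 to 0.416 against 0.205 to 0.225). The 2 groups were normalised apart, so these levels are set side by side only.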

How the data were processed

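RNA-seq libraries were made with SMART-seq2. Per the study's methods the authors mapped them with STAR 2.7 to mm10, keeping no multi-mapping read, removed duplicates with samblaster, and counted reads over exons per gene name with featureCounts without strand on GENCODE M21; the deposited values are raw counts per gene and library. For ChIP-seq the authors aligned with Bowtie 1.2.2 and called peaks with MACS2 2.1.1 in each library against an input, and each deposited BED score is the −log10 p of a peak, at least 10 in every list as the caller's threshold set it. The BED files hold no reads, so depth per peak is unknown. The authors' own comparison tables (log2 fold changes and p-values) were not used.

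Counts were tested with edgeR 4.0.16 (TMM, filterByExpr, quasi-likelihood test, Benjamini-Hochberg adjustment over all tested genes) in R 4.3.3. One fit held the 12 libraries of 6 groups, one the 4 Eed fl/fl libraries, and one all 16 for the difference between Eed fl/fl and Parental. A gene was called at FDR below 0.05 and an absolute log2 change of at least 1.5, the study's thresholds. Groups of 2 replicates came from the titles; the series text calls them biological replicates. Intervals of count ratios are 95% exact binomial intervals on summed counts and, like the floor of 3 counts over a group, cover counting error only. The scripts were tested on simulated data. Alternatives were DESeq2 1.42.0, filters on low counts, a replicate block, leaving out each library, a peak score of 20 or more, and start sites in place of whole genes. Gene positions are from GENCODE M21 (mm10) and promoters from RefSeq on GRCm38.p6.

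The members and lists were chosen with earlier results of these data known. Named genes were all 10 members, the genes of the LIM homeobox, cofactor and target lists past both thresholds in Parental, and the 3 other genes with the highest Pearson r with the members' median profile of log2(CPM + 1). Ldb1, Ssbp2, Lmo3, Lmo4, Chat and Fgf10 were added after their values were seen.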

Additional observations from a re-analysis of the deposited data

Results flagged for a closer look

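The effect of OHT differed between lines by an interaction test for several LIM homeobox genes. Between RING1B WT and Parental, Lhx4 differed by -7.80 on the log2 scale. Between Eed fl/fl and Parental the differences were -8.53 for Lhx1, -5.69 for Lhx3, -8.21 for Lhx4, -4.81 for Lhx5, -8.11 for Lhx8, -6.54 for Lhx9 and -5.86 for Isl2. Lhx1, Lhx4, Lhx8 and Lhx9 had 0 counts in both Parental -OHT libraries, so the sizes of their differences depend on the prior count of the fit. The Eed fl/fl line differs from Parental in more than the deleted gene, and the part of that in these values cannot be told apart.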

How the results depend on the processing

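Of 143 counts of called members under an alternative, 129 stayed within 1.5 times the reported count and 14 moved. In RING1B WT with OHT against without, 0 members were called, 2 with no filter on low counts, 1 with at least 10 counts in all, and 0 to 1 with a library left out. RING1B WT against Parental with OHT called 5, 8 in a fit of its own libraries and 2 to 6 with a library left out. RING1B I53S against RING1B WT called 5, and 0 to 4 with a library left out, the 0 without the first RING1B WT +OHT library. For the OHT effect in RING1B WT minus Parental the range was 0 to 1, for Eed fl/fl 0 to 1, and for Eed fl/fl minus Parental 4 to 9, with 1 and 4 without the second Eed fl/fl -OHT library. Parental stayed at 9 and RING1B I53S at 8 to 9. Of 1054 values of single genes, 987 kept their side of the thresholds, 45 lost the call, 21 gained it and 1 reversed: Lhx3 in Eed fl/fl was 0.48 without the second Eed fl/fl -OHT library, against -0.80, and its range with a library left out was -1.83 to 0.48. The cause of these changes was not tested.

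The replicate block called 9 members in Parental, 9 in RING1B I53S, 0 in RING1B WT, 6 in each of the comparisons of RING1B WT with Parental and with RING1B I53S after OHT, 7 in Eed fl/fl minus Parental and 0 in Eed fl/fl, where Lhx9 had the lowest FDR of the members (0.176). The labels name no shared batch, and replicate differences correlated at 0.0011 to 0.213 over the 15 pairs of groups and at 0.411 in Eed fl/fl, so with 2 numbers and no stated batch the reported fits hold no block. In Eed fl/fl the block called 161 of all genes, against 2 without it. The paper lists 2 Eed fl/fl clones, and the labels do not say whether the replicate numbers stand for them. If they do, the reported Eed fl/fl fit leaves out that pairing.

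Of 280 counts of members with a peak, 260 stayed and 20 moved. At a score of 20 or more, CBX7 had a peak at 0 members in Parental +OHT and 0 in RING1B I53S, H2AK119ub1 at 5 and PCGF2 at 5 in RING1B I53S, JARID2 at 2 in the second RING1B I53S library at 72 h, and RING1B at 0 in RING1B I53S. PCGF6 had one at 1 in Parental +OHT, 3 in Parental -OHT and 1 in RING1B I53S, and RYBP at 1 in Parental -OHT, 0 in RING1B I53S and 2 in RING1B WT. In MTF2 KO lines H3K27me3 had one at 0 in Parental +OHT, 4 in Parental -OHT and 4 in RING1B WT, and SUZ12 at 1 in Parental +OHT and 0 in RING1B I53S. With peaks near start sites alone, PCGF6 in RING1B I53S stood at 2, RYBP in RING1B WT at 3, and SUZ12 in MTF2 KO Parental +OHT at 2. A member at 0 counts is below detection at 8140106 to 12743460 counts per library, and the depth of the peak lists is unknown.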
